A study of Mus musculus with 6 samples.

Results

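Plasma cells are the antibody-secreting end stage of the B lineage. They switch on a secretory program under the transcription factors Blimp-1 and XBP1, assemble immunoglobulin in an enlarged endoplasmic reticulum (ER), and in part settle in bone marrow. Pro-B cells, the precursors that are still assembling their heavy chain gene, lie at the other end of the lineage and secrete no antibody. Jchain and 5 other genes widely used to mark plasma cells (Sdc1, Mzb1, Derl3, Tnfrsf17 and Prdm1) are described here in pro-B cells sorted by flow cytometry from adult bone marrow of C57BL/6 mice. The 6 genes were picked by symbol out of 54752 gene identifiers, with their FPKM (fragments scaled for transcript length and sequencing depth) in this comparison already known, so their differences are given as description and without a test.

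One group was Skiv2lfl/fl-Cd79a-Cre (called Skiv2l-deleted below) and the other Skiv2lfl/fl (called control), with 3 mice and 1 library per mouse in each. Both groups carry the floxed Skiv2l alleles, and the labels name Cre in the first group alone, so Cre and loss of Skiv2l cannot be told apart. The Cre is driven from Cd79a, a gene active in B lineage cells from early stages on. The product of Skiv2l is an RNA helicase that, within the SKI complex, hands messenger RNA to the cytosolic exosome, and the comparison addresses what its loss does to the pro-B transcriptome. The sources used here do not name the floxed exons or the surface markers that defined the sort.

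The 6 libraries held 1.74 to 2.40 Gb of aligned bases each, and p-values measure the spread between mice. Skiv2l stood at 30.6 ± 13.8 FPKM in control and 12.2 ± 3.50 FPKM in Skiv2l-deleted libraries (SD, n = 3), without overlap, and its limma adjusted p was 0.063, or 0.0172 without control 3 and Skiv2l-deleted 2 (described next). Cd79a itself fell from 702 ± 53.8 to 392 ± 42.5 FPKM (limma adjusted p = 0.0123). Of the 12 markers of pro-B cells that were checked, all were present in each library, with a summed level of 2484 to 3548 FPKM in controls and 4384 to 5490 FPKM in Skiv2l-deleted libraries. Neutrophil transcripts were raised in 4 of the 6 libraries over the other 2: 8 markers summed to 17.3, 495 and 905 FPKM in controls 1 to 3 and to 392, 1515 and 10.95 FPKM in Skiv2l-deleted 1 to 3. Control 3 and Skiv2l-deleted 2 had the highest sums and also stood apart in 7 monocyte and macrophage markers, at 429 and 816 FPKM against 48.2 to 114 FPKM. The granule gene Ngp was instead highest in control 2 (58.3 FPKM) and Skiv2l-deleted 1 (49.6 FPKM). For named genes whose call changes without control 3 and Skiv2l-deleted 2, the value without both is given.

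The members play different parts. Jchain encodes the joining chain, which links IgM and IgA into secreted polymers. Mzb1 encodes an ER co-chaperone that works with GRP94 in immunoglobulin assembly, and Derl3 a derlin of ER-associated degradation. Sdc1 encodes the surface heparan sulfate proteoglycan syndecan-1 (CD138), which B cell precursors in bone marrow also carry. Tnfrsf17 encodes BCMA, the receptor through which APRIL sustains long-lived plasma cells, and Prdm1 encodes Blimp-1 itself.

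Among the 3 members that passed the expression filter and were lower in the Skiv2l-deleted libraries, Jchain had the largest and Derl3 the smallest log2 fold change, and their upstream sequences are shown for that contrast. The 250 bases before the RefSeq start were taken from GRCm38.p6 and read 5′ to 3′ on the gene's strand. Jchain lies at chr5:88527898-88528147 on the minus strand and Derl3 at chr10:75893148-75893397 on the plus strand. Capitals mark matches, on either strand, to the ER stress response element (ERSE: CCAAT, then 9 bases of any kind, then CCACG) and to ACGTG, a core bound by XBP1.
Jchain: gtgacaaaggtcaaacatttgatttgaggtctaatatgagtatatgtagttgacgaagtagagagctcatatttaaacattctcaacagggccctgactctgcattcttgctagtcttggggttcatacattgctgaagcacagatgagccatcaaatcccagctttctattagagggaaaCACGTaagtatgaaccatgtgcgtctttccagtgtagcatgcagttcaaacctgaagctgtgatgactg
Derl3: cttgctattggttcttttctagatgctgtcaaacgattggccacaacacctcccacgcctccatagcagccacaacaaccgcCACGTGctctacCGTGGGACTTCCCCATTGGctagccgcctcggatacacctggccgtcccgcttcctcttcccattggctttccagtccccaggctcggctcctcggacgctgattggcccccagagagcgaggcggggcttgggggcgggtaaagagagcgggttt
The Derl3 stretch holds an ERSE on the minus strand, from base -156 to base -138 counted back from the start, a match found in 37 of 32851 upstream stretches of the same length (0.113%). It also holds ACGTG on both strands, as 2 overlapping matches from base -168 to base -163 that do not overlap the ERSE. The Jchain stretch holds ACGTG once, from base -69 to base -65 on the minus strand, and ACGTG in this window is common (16.6% of all stretches). The octamer ATGCAAAT, present in 526 stretches, was not among the letters of either window.

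Jchain showed the widest difference of the 6. It stood at 44.5, 36.9 and 75.2 FPKM in controls 1, 2 and 3. In Skiv2l-deleted 1, 2 and 3 it stood at 0, 0.233 and 0.0821 FPKM. The groups did not overlap, control 3 was the highest, and Skiv2l-deleted 1 was listed at 0. In each control the gene ranked above 79.9% to 90.0% of the 13539 genes tested, and in Skiv2l-deleted 2 and 3 above 0.377% and 0.170% of them. Means were 52.2 ± 20.3 and 0.105 ± 0.118 FPKM (SD, n = 3). The log2 fold change, Skiv2l-deleted minus control on log2(FPKM + 1), was −5.53 ± 0.31 (SE), and 1 of the tested genes, Igha, had a lower one. In sorted bulk samples, fewer cells of a type and less RNA per cell cannot be told apart.

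The deposited coverage went the same way, and as it describes the same libraries it is no separate evidence. Per Gb of aligned bases, coverage was 24.8, 20.6 and 41.9 for Jchain in controls and 0, 0.217 and 0.0764 in Skiv2l-deleted libraries. The ratio of FPKM to this coverage was 1.79 in each control and 1.075 in Skiv2l-deleted 2 and 3, so the measures differed in how far they separated the groups. GENCODE annotates 2 Jchain transcripts on chromosome 5, 88519809 to 88527891 (GRCm38, minus strand), a coding one of 4 exons and 1 with a retained intron. The deposited coverage behind these values was 0.433 and 0.183 in Skiv2l-deleted 2 and 3, against 38.1 to 73.1 in controls. Which transcript gave the values was not tested.

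Tnfrsf17 was low throughout, at 0.348, 0.397 and 0.538 FPKM in the controls. It was listed at 0 in all 3 Skiv2l-deleted libraries. Control 3 was again the highest, as for Jchain. The gene did not reach the 1 FPKM needed in 3 libraries to be tested, and its deposited coverage was only 0.683 to 0.939 in controls, so its level is imprecise. Tnfrsf17 lies on chromosome 16, 11313812 to 11320074 (GRCm38).

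Sdc1 stood at 24.7, 30.7 and 19.5 FPKM in controls and 11.8, 7.23 and 9.94 FPKM in Skiv2l-deleted libraries. The ranges were separate, and the gene was present in all 6 libraries. Control 3, highest for Jchain, was the lowest control here. The means, 24.97 ± 5.63 and 9.65 ± 2.28 FPKM (SD, n = 3), gave a log2 fold change of −1.29 ± 0.26 (SE), a Skiv2l-deleted mean of 38.6% of the control mean. Sdc1 (chromosome 12, 8771323 to 8793715, GRCm38) has 5 annotated transcripts, and its FPKM was 7.21 to 8.28 times its coverage per Gb. On the coverage scale it stood at 3.42, 3.93 and 2.70 in controls against 1.42, 1.002 and 1.21, again without overlap.

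Mzb1, on chromosome 18, was the most abundant member and went the other way. It stood at 211, 232 and 280 FPKM in controls and 342, 336 and 363 FPKM in Skiv2l-deleted libraries. All Skiv2l-deleted libraries lay above all controls, and in each library the gene ranked above at least 97.4% of the tested genes. The means were 241 ± 35.5 and 347 ± 14.3 FPKM (SD, n = 3), with a log2 fold change of 0.53 ± 0.12 (SE). In the GENCODE annotation Mzb1 overlaps SPATA24 on the same strand, so reads could be shared between them. The deposited identifier version and coordinates of Mzb1 differ from those of GENCODE, so the overlap may not hold for the gene model behind these values.

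Derl3 differed least among the 4 members that passed the expression filter. It stood at 6.51, 5.61 and 7.24 FPKM in controls and 4.94, 4.91 and 4.201 FPKM in Skiv2l-deleted libraries, with a narrow gap between the groups. The means were 6.45 ± 0.819 and 4.68 ± 0.418 FPKM (SD, n = 3), and the log2 fold change was −0.39 ± 0.11 (SE). The gene lies on chromosome 10, 75893413 to 75895941 (GRCm38).

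Prdm1 was near the bottom of the measurable range in both groups. It stood at 0.492, 0.336 and 0.460 FPKM in controls and 0.201, 0.511 and 0.219 FPKM in Skiv2l-deleted libraries. The groups overlapped, since Skiv2l-deleted 2 was the highest of all 6, and this is also the library with the most myeloid and dendritic cell transcripts. The log2 fold change was −0.13 ± 0.12 (SE), and the gene was not tested. Prdm1 spans chromosome 10, 44437177 to 44528501 (GRCm38, minus strand), with 4 annotated transcripts.

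**Figure D1:**
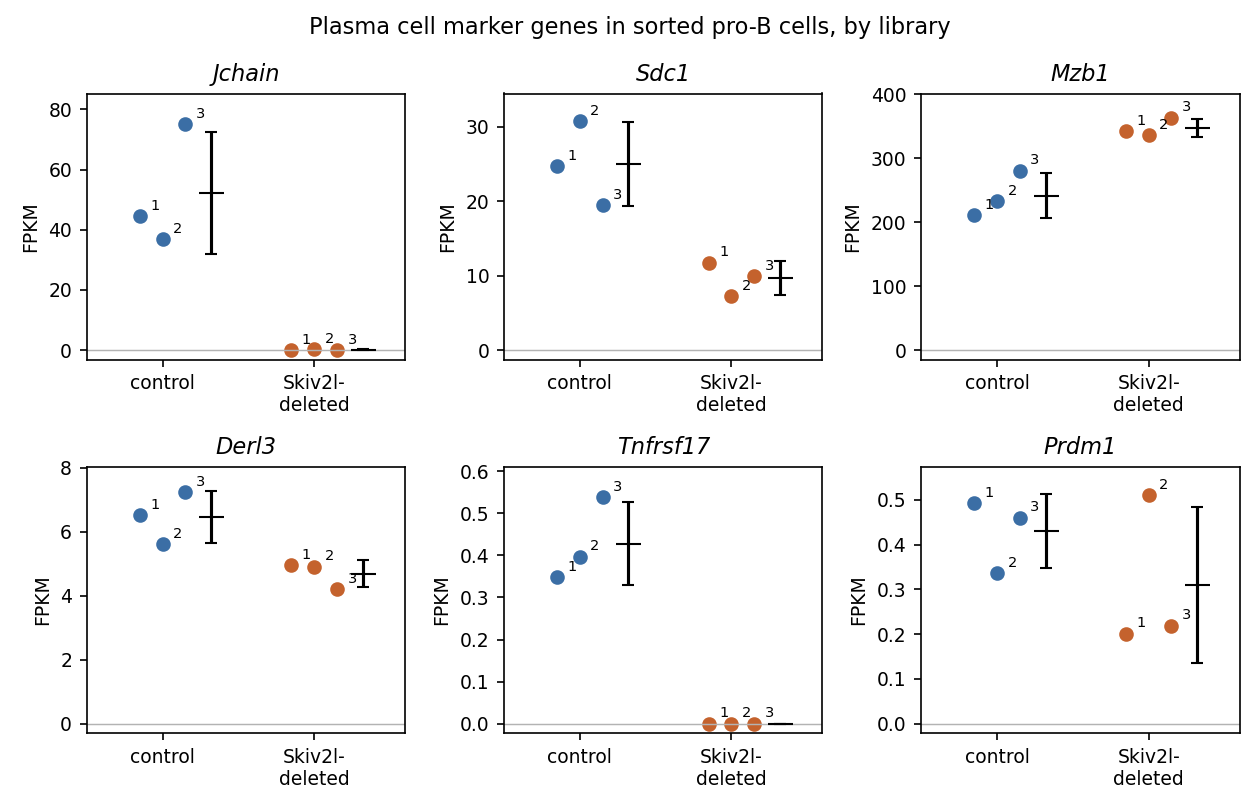
FPKM (y axis of each panel, from 0) of the 6 members in 3 control (blue) and 3 Skiv2l-deleted (orange) libraries, with the replicate number beside each point and bars for mean ± SD. Jchain and Tnfrsf17 lie at or near 0 in the Skiv2l-deleted libraries, Sdc1 and Derl3 lie lower, Mzb1 lies higher, and the groups overlap in Prdm1.

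The groups therefore did not overlap in 5 of the 6 members, among them the 4 that passed the expression filter. Of all tested genes, which passed the same filter, 32.2% showed no overlap and 8.84% passed the limma threshold in either direction. Since the members were chosen on these values, nothing is read from their count. Within controls the order of levels in FPKM was Mzb1, Jchain, Sdc1, Derl3, Prdm1 and Tnfrsf17, and only the ranges of the last pair overlapped. In Skiv2l-deleted libraries the order was Mzb1, Sdc1, Derl3, Prdm1, Jchain and Tnfrsf17, with overlapping ranges between Prdm1 and Jchain and between Jchain and Tnfrsf17. On coverage per Gb the ranges of Sdc1 and Derl3 overlapped in controls (means 3.35 and 3.34), and in Skiv2l-deleted libraries Derl3 (2.37) lay above Sdc1 (1.21). The place of Sdc1 among the members thus depends on the measure.

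Among the 3 controls, Jchain and its polymer partner Igha, the IgA heavy chain constant gene, had the same order of levels. Igha stood at 216, 164 and 380 FPKM in controls and 0.302, 0 and 0.0845 FPKM in Skiv2l-deleted libraries. Jchain was 20.6%, 22.5% and 19.8% of Igha in controls 1, 2 and 3, a 1.14-fold range, although each gene on its own varied 2.04-fold (Jchain) and 2.32-fold (Igha). Both genes were lowest in control 2 and highest in control 3. In the Skiv2l-deleted libraries, where both lay near 0, the order was the opposite: Skiv2l-deleted 1 was lowest for Jchain and highest for Igha. Against Ighm, the IgM heavy chain constant gene, Jchain was 1.26%, 1.16% and 2.16% in controls and 0%, 0.0101% and 0.00354% in Skiv2l-deleted libraries. Ighm itself varied only 1.11-fold among controls.

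The class-switched constant genes, which pro-B cells do not ordinarily express as antibody, were lower in the Skiv2l-deleted libraries to different extents. Igha, Ighg1 and Ighg3, like Jchain, reached 1 FPKM in the 3 controls alone, so they passed the filter only through the group where they are high and had to differ. Their log2 fold changes (−7.73, −4.02 and −3.03) are given as description. Of the other 4 tested heavy chain constant genes 3 fell (Ighg2b, Ighg2c and Ighm, limma adjusted p below 0.05), where 3.87% of all tested genes fell and 4.97% rose. Ighg2b, unlike Jchain, stayed well above 0: it stood at 216, 215 and 281 FPKM in controls against 89.3, 47.8 and 90.1 FPKM (−1.68 ± 0.26, limma adjusted p = 0.0138). Ighg2c stood at 75.5, 68.4 and 84.6 FPKM in controls against 6.19, 3.00 and 5.61. Ighg1 did not share Jchain's order among controls: it was lowest in control 3, at 5.79 FPKM against 27.8 and 22.9 FPKM. Ighm fell from 3402 ± 187 to 2234 ± 138 FPKM (−0.61 ± 0.12, limma adjusted p = 0.0297), a call kept in 1 of 6 omissions of a library. Of the same 4 genes, 1 fell without control 1, 2 without control 2, 3 without control 3, and 3 without control 3 and Skiv2l-deleted 2. Reads may also be divided among the IgG constant genes, whose sequences are alike, so their single values are uncertain.

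**Figure D2:**
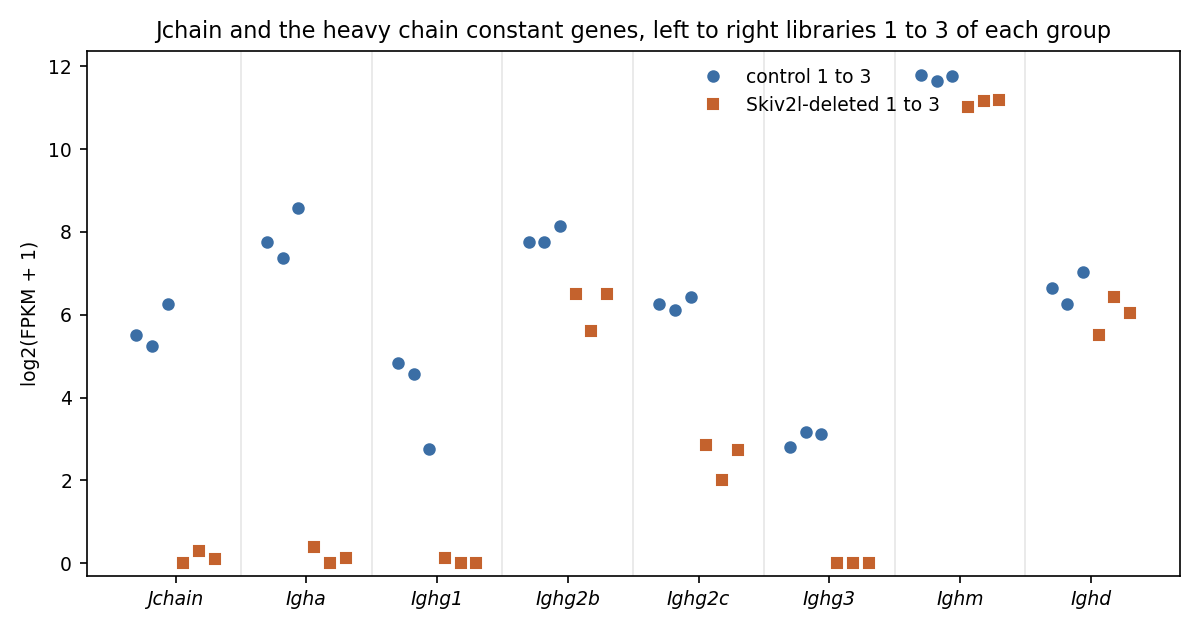
Log2(FPKM + 1) (y axis) of Jchain and 7 heavy chain constant genes (x axis) in control libraries 1 to 3 (blue circles) and Skiv2l-deleted libraries 1 to 3 (orange squares), left to right. Jchain, Igha, Ighg1 and Ighg3 lie near 0 in the Skiv2l-deleted libraries, while Ighm stays above 2074 FPKM.

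The genes whose pattern over the 6 libraries came closest to Jchain, by Euclidean distance between centred log2(FPKM + 1) profiles, were immunoglobulin genes without exception among the nearest 8. In order they were Igkv5-43 (distance 1.89), Igkv6-15 (2.26), Ighg2c (2.41), Igkv6-23 (2.63), Igkv4-68 (2.64), Igkv10-96 (2.67), Igkv10-94 (2.73) and Igha (2.75). Their log2 fold changes ran from −3.38 (Igkv10-94) to −7.73 (Igha). Such a distance depends largely on the size of the group difference, so closeness here partly restates the low Jchain values in Skiv2l-deleted libraries. Igkv5-43 stood at 28.9, 23.8 and 49.8 FPKM in controls and 0.329, 2.03 and 0.979 FPKM in Skiv2l-deleted libraries. Its low and high mice were those of Jchain among the controls, as they were for Ighg2c, Igkv6-23, Igkv10-94 and Igha. The remaining genes had another order: Igkv6-15 was highest in control 2 (33.0 FPKM). Igkv4-68 and Igkv10-96 were lowest in control 1 (10.7 and 34.4 FPKM). Igha had the highest Pearson correlation of these 8 with Jchain (0.998 over 6 libraries, which fall into the 2 groups), and its distance came from its larger range. Many kappa segments closely resemble one another, which makes their single values less certain.

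The patterns nearest to the other members were not immunoglobulin genes in the main. For Sdc1 they were Pfn2 (profilin-2, distance 0.28), Chpf (a chondroitin polymerizing factor, 0.45), Cip2a (0.46), the surface antigen gene Cd24a (0.46) and the heavy chain joining segment Ighj4 (0.49). Cd24a stood at 1337, 1344 and 944 FPKM in controls and 653, 496 and 665 FPKM in Skiv2l-deleted libraries. For Mzb1 they were Jagn1, which encodes the ER protein jagunal (0.07), Gm45308 (0.13), Dok1 (0.14), Hspb11 (0.14) and Cars (0.14). For Derl3 they were Tsnax, Haus4, Gm45151, Tprkb and Odf2l, at distances of 0.06 to 0.12. Small distances are common for genes that differ little, so these values describe and do not rank the members.

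Of 8 tested regulators of the plasma cell state 0 passed in either direction with limma (3 at an unadjusted p under 0.05), where 8.84% of all tested genes passed. The median log2 fold change was −0.06, against 0.06 over all genes tested. Xbp1, whose product drives secretory genes, stood at 36.4, 39.0 and 53.5 FPKM in controls and 42.6, 75.9 and 44.8 FPKM in Skiv2l-deleted libraries, with overlap. Irf4, needed for plasma cell formation and also active in B cell precursors, stood at 153, 151 and 90.4 FPKM against 72.1, 67.9 and 79.7 FPKM. The Irf4 groups did not overlap (−0.80 ± 0.21, limma adjusted p = 0.0636), and control 3 lay close to the Skiv2l-deleted range. Without control 3 the limma adjusted p of Irf4 was 0.0063, and 3 of 7 regulators (Irf4, Pou2af1 and Atf6) were lower. The same 3 were lower without both control 3 and Skiv2l-deleted 2, with limma adjusted p = 0.0102 for Irf4, 0.0450 for Pou2af1 and 0.0345 for Atf6. Tent5c, which stabilizes immunoglobulin messages in plasma cells, was too low to be tested, at 0.929, 1.40 and 1.03 FPKM against 0.332, 0.397 and 0.348 FPKM, without overlap. Other regulators were higher in Skiv2l-deleted libraries without overlap and were not called. These were Creb3l2 (means 1.93 in control and 2.88 FPKM in Skiv2l-deleted, limma adjusted p = 0.152) and Ern1 (2.68 and 3.86 FPKM, limma adjusted p = 0.275).

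B cell identity genes, some of which Blimp-1 shuts off in plasma cells, gave calls in 1 direction. Of 12 tested 4 fell and 0 rose (median −0.25), where 3.87% of all tested genes fell. The class II transactivator gene Ciita fell from 7.44 ± 3.18 to 0.952 ± 0.117 FPKM (SD, n = 3; −2.03 ± 0.31, limma adjusted p = 0.0131). Spib (−1.35), an Ets factor, Ms4a1 (−1.20), which encodes CD20, and Cd22 (−0.75), an inhibitory receptor, fell too. Pax5, the factor that holds B cell identity, stood at 152, 152 and 197 FPKM against 167, 113 and 156 FPKM (−0.21 ± 0.18, limma adjusted p = 0.538). Bach2, a repressor of Prdm1, stood at 101, 108 and 51.2 FPKM against 41.8, 37.6 and 45.8 FPKM (−0.97 ± 0.28, limma adjusted p = 0.0762, 0.0055 without control 3 and 0.0077 without control 3 and Skiv2l-deleted 2). Cd22 and Ms4a1 kept their calls in 1 of 6 omissions of a library each, and Spib and Ciita in 3. The count of lower genes in this list was 0 or 1 in 4 of the 6 omissions.

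Among the relatives of BCMA and their adaptors, 1 of 6 tested genes fell and 0 rose, where 3.87% of all tested genes fell and 4.97% rose. That was the adaptor gene Traf5, from 32.5 ± 10.9 to 12.8 ± 3.35 FPKM (−1.26 ± 0.27, limma adjusted p = 0.0325), kept in 2 of 6 omissions. Tnfrsf13b, which encodes the APRIL and BAFF receptor TACI, stood at 60.5, 45.6 and 52.2 FPKM against 36.1, 37.8 and 38.1 FPKM. Tnfrsf13c, which encodes the BAFF receptor of B cells, stood at 42.2, 40.2 and 39.3 FPKM against 27.7, 22.6 and 32.5 FPKM. Neither gene's groups overlapped, with limma adjusted p = 0.0615 for Tnfrsf13b and 0.0598 for Tnfrsf13c, both above the threshold. The ligand genes Tnfsf13 and Tnfsf13b were too low to be tested. Of the 8 plasma cell surface genes, 3 could be tested and 1 rose (4.97% of all tested genes did), the gp130 gene Il6st, from 2.64 ± 0.483 to 6.53 ± 1.27 FPKM (1.04 ± 0.18, limma adjusted p = 0.0197, kept in 2 of 6 omissions). Tigit, an inhibitory receptor gene below the filter, stood at 0.291, 0.229 and 0.672 FPKM in controls and was listed at 0 in all 3 Skiv2l-deleted libraries, as was Tnfrsf17. The other surface genes below the filter went in both directions. Cxcr3 was higher in Skiv2l-deleted libraries without overlap (control mean 0.257, Skiv2l-deleted mean 0.375 FPKM). Epcam was higher with overlap (0.424 and 0.869 FPKM), and Cd28 (0.314 and 0.169 FPKM) and Ccr10 (0.193 and 0.147 FPKM) were lower with overlap.

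Of all tested genes 8.84% passed, and among genes for assembly and degradation of immunoglobulin in the ER the counts were 3 of 15 and 2 of 19. Of 15 tested genes for IgM and IgA assembly, Igha and Ighm fell and the lectin chaperone gene Canx rose (0.48 ± 0.11, limma adjusted p = 0.0369, kept in 1 of 6 omissions and 0.0586 without control 3 and Skiv2l-deleted 2). The median of the 15 was 0.10. Igha, 1 of the 3 called, passed the filter through the controls alone and had to differ, so the 3 are not read against the 8.84%. Hsp90b1, which encodes GRP94, the partner of the Mzb1 product, stood at 242, 295 and 393 FPKM against 222, 328 and 193 FPKM and the groups overlapped. Of 19 genes of ER-associated degradation 2 fell, the mannosidase-like Edem3 (−0.97) and the ubiquitin ligase gene Syvn1 (−0.48), and 0 rose (median −0.02). Edem3 kept its call in 1 omission of a library and Syvn1 in 0. Without control 3 and Skiv2l-deleted 2 the limma adjusted p of Syvn1 was 0.0817. The other derlins did not pass: Derl1 stood at 25.05, 26.1 and 28.2 FPKM against 25.3, 29.2 and 27.8 FPKM, and Derl2 at 15.9, 15.8 and 18.4 FPKM against 13.5, 16.9 and 14.1 FPKM. Both were more abundant than Derl3 in every library. Of the 13 tested genes that share an upstream ERSE match with Derl3 (Derl3 included), 1 rose and 1 fell, with a median of 0.17, where 4.97% of all tested genes rose and 3.87% fell.

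The other syndecans did not show the separate, lower values of Sdc1. Sdc4 stood at 59.4, 62.9 and 64.7 FPKM in controls and 64.1, 56.7 and 82.6 FPKM in Skiv2l-deleted libraries (0.10 ± 0.15, limma adjusted p = 0.733), and exceeded Sdc1 in each library. Sdc3 was low (0.222 to 0.338 FPKM in controls) and highest in Skiv2l-deleted 2 (1.67 FPKM), and Sdc2 was listed at 0 in all 6 libraries. Of 14 tested genes of syndecans and heparan sulfate synthesis 2 rose and 0 fell (median 0.20), where 4.97% of all tested genes rose: Hs6st1, a sulfotransferase gene (0.78, limma adjusted p = 0.05 when rounded), and Ext2, a chain polymerase gene (0.49, limma adjusted p = 0.0473). Each kept its call in 1 of 6 omissions, and without control 3 and Skiv2l-deleted 2 the limma adjusted p of Ext2 was 0.0571.

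**Figure D3:**
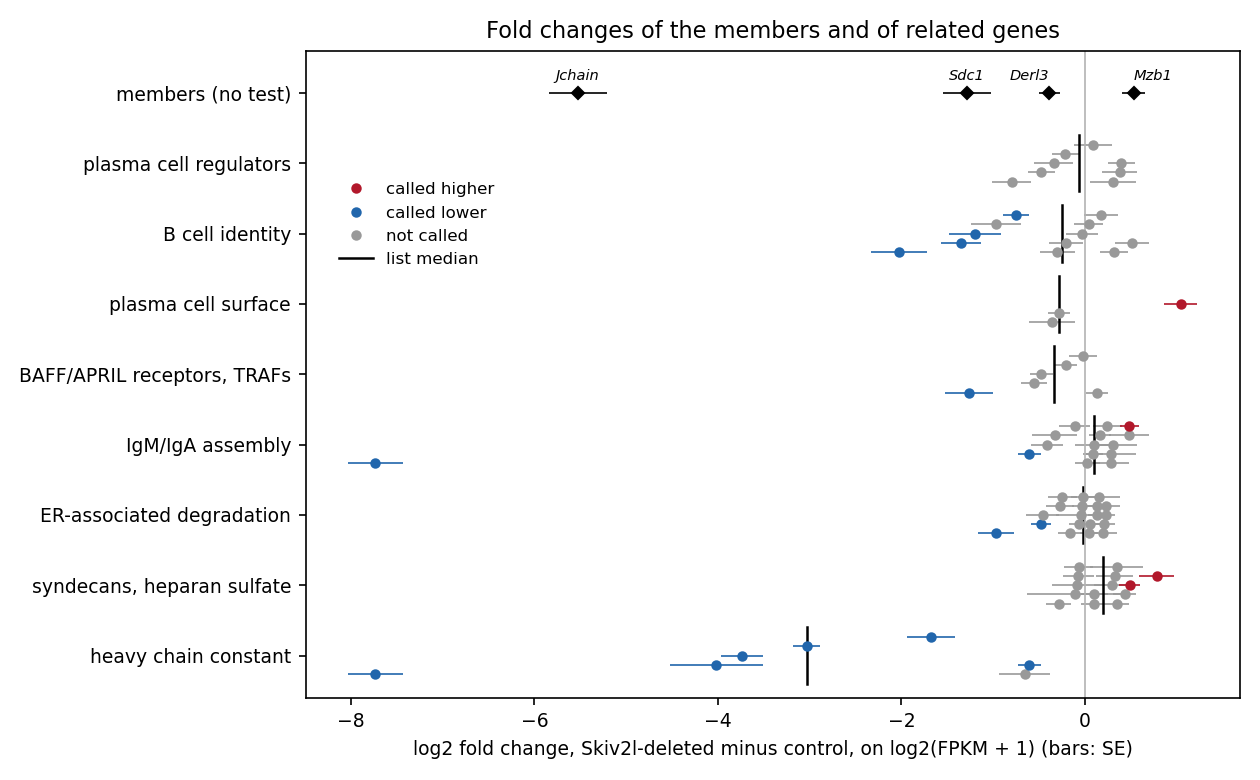
Log2 fold change, Skiv2l-deleted minus control on log2(FPKM + 1) (x axis), with SE bars, of the 4 members that passed the filter (top row, no test) and of the tested genes of 8 related lists. Colours mark genes that passed the limma threshold and black lines the list medians. SE bars of the members are without eBayes moderation, and those of the other genes are with it. Jchain (−5.53) lies far below Sdc1, Derl3 and Mzb1, and 3 of the 7 heavy chain constant genes passed the filter through the controls alone.

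Markers of other cell types were set beside these values. Of 5 mature B cell markers 4 were tested, and Ms4a1 fell (kept in 1 of 6 omissions), where 3.87% of all tested genes fell. Fcer2a stood at 2.16, 1.56 and 2.31 FPKM in controls against 0.0554, 0.250 and 0.145 FPKM. It passed the filter through the controls alone and had to differ, so it is given as description. The list summed to 93.0 to 154 FPKM in controls and 50.9 to 98.9 FPKM in Skiv2l-deleted libraries, mostly through Ighd. The 5 plasmacytoid dendritic cell markers, a cell type that also expresses secretory genes, summed to 22.2 to 52.5 FPKM in controls and 57.4 to 88.6 FPKM in Skiv2l-deleted libraries, mostly through Bst2 (limma adjusted p = 0.0985, or 0.031 without control 3 and Skiv2l-deleted 2), with Klk1 at 0 in the controls. Their defining gene Siglech stood at 6.09 FPKM in Skiv2l-deleted 2, the library with the highest Jchain value of its group, and at 0.137 to 1.04 FPKM elsewhere. Skiv2l-deleted 2 also had the highest neutrophil, monocyte and macrophage, erythroid, and T and NK cell sums, so this was not particular to plasmacytoid dendritic cells. Neutrophil markers overlapped between groups, at 17.3 to 905 FPKM in controls and 10.95 to 1515 FPKM in Skiv2l-deleted libraries. Of the 12 pro-B markers 6 rose and 0 fell, where 4.97% of all tested genes rose. The number that rose was 0 without Skiv2l-deleted 1, 0 without Skiv2l-deleted 3, 1 without control 1, 3 without control 2, 3 without Skiv2l-deleted 2 and 5 without control 3 and Skiv2l-deleted 2. With limma, 1 of 2 tested T and NK cell markers rose: Klrb1c, from 2.90 ± 0.625 to 11.2 ± 1.77 FPKM (limma adjusted p = 0.0061, kept in 6 of 6 omissions). The T cell markers Cd3e, Cd3d, Cd3g, Cd4 and Cd8a were too low to be tested. Of the 8 neutrophil, 3 monocyte and macrophage, 4 erythroid and 1 plasmacytoid dendritic cell markers tested, 0 passed. Stromal and epithelial markers summed to at most 1.04 FPKM, with Lepr listed at 0 in all 6 libraries. The part of mature B cells, and of plasma cells themselves within the sort, in the Jchain, Igha and Tnfrsf17 values was not tested, nor was that of any other cell type in the Sdc1 values.

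**Figure D4:**
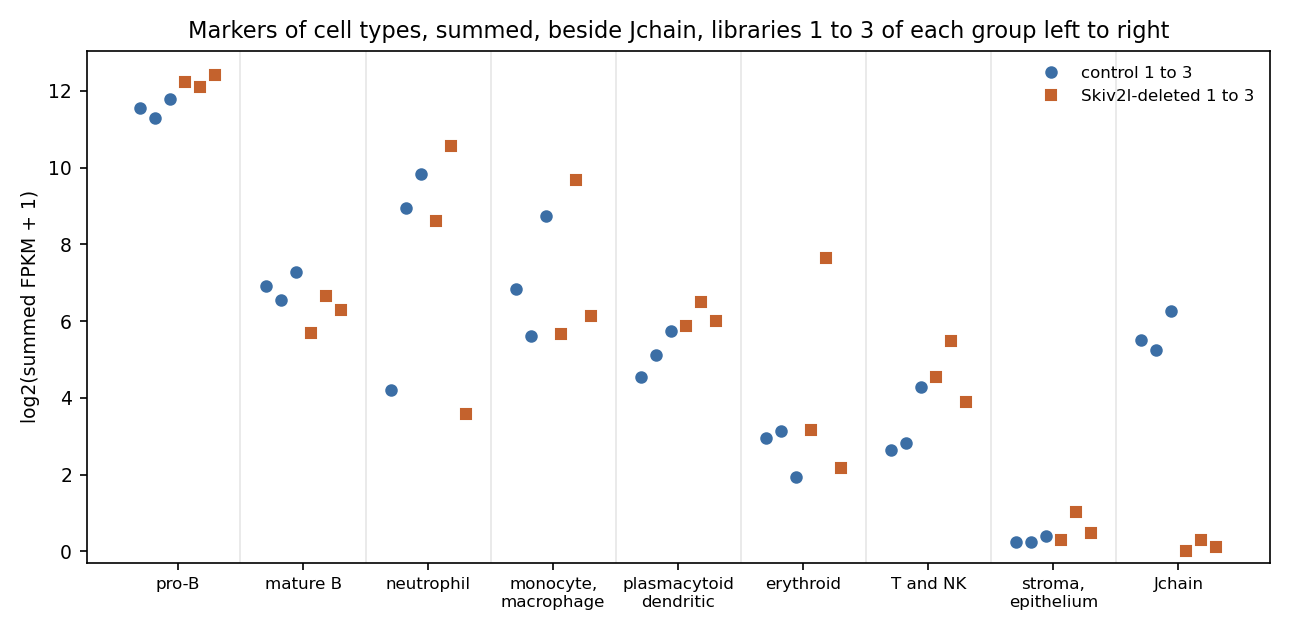
Log2 of summed FPKM + 1 (y axis) for marker lists of 8 cell types, and of Jchain at the right, in control (blue circles) and Skiv2l-deleted (orange squares) libraries 1 to 3, left to right. Neutrophil, monocyte and erythroid sums are highest in Skiv2l-deleted 2, and Jchain lies near 0 in all 3 Skiv2l-deleted libraries. A sum can hide a single marker.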

How the data were processed

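Messenger RNA of sorted pro-B cells from 3 control and 3 Skiv2l-deleted mice was sequenced as strand-specific libraries, per the labels' protocols, on the GRCm38 build, per the submitters' processing notes. The aligner and quantifier were not given in the sources used here. Per the file headers, the authors deposited FPKM, TPM and coverage (mean signal per base) for 54752 gene identifiers in each library, with no read counts; 7 to 9 identifiers stood on several lines and were summed. Coverage was divided by the aligned Gb, taken as the commonest ratio of coverage to FPKM in a library.

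Fold changes and tests were computed with limma 3.58.1 in R 4.3.3 (eBayes with a trend) on log2(FPKM + 1). A gene was tested if 3 or more libraries reached 1 FPKM, which 13539 did. P-values were adjusted by Benjamini-Hochberg over all these genes and called below 0.05. This scale understates changes of low genes. The fit was tested on simulated data. Libraries are 1 per mouse. 

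The members and the 8 related gene lists and 8 cell type lists were chosen with earlier results of these data known. Named were the members, close relatives, up to 4 genes per list and direction with the largest called change, and the nearest patterns. Tigit, Tent5c, Hsp90b1, Pou2af1, Atf6, Fcer2a, Siglech, Bst2 and Ngp, outside that rule, were named after their values were seen. So were Cxcr3, Epcam, Cd28, Ccr10, Klrb1c, Cd3e, Cd3d, Cd3g, Cd4, Cd8a, Ighg2b, Ighd, Creb3l2, Ern1, Klk1, Lepr, Tnfsf13 and Tnfsf13b.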

Additional observations from a re-analysis of the deposited data

How the results depend on the processing

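The directions of Jchain, Sdc1, Mzb1, Derl3 and Prdm1 were the same under each alternative run. The Jchain log2 fold change was −8.10 with a pseudocount of 0.1, −6.40 with 0.5, −6.36 on TPM and −4.72 on coverage per Gb, the last an alternative chosen after seeing the data, and −5.74 to −5.24 when 1 library was left out. That of Prdm1 was −0.43 with a pseudocount of 0.1. A smaller pseudocount compresses low values less; the cause of the TPM and coverage differences was not tested. Leaving out 1 library gave −1.45 to −1.11 for Sdc1, 0.44 to 0.65 for Mzb1, −0.47 to −0.31 for Derl3 and −0.24 to −0.07 for Prdm1.

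Counts of called genes were less stable. Over all genes, 673 rose and 524 fell. With no filter on low values these were 280 and 232, and with the replicate block 185 and 180. When 1 library was left out they ranged from 63 to 1020 and from 113 to 729, the highest without control 3 and the lowest without Skiv2l-deleted 3 (rises) or 1 (falls). In the 8 related lists together, 4 of 82 tested genes rose and 13 fell, 3 of the 13 (Igha, Ighg1 and Ighg3) having passed the filter through the controls alone. The rises numbered 1 on TPM, 2 with quantile normalization, 0 with no filter, 0 with the replicate block, 2 without control 3 and Skiv2l-deleted 2, and 2 on coverage. The falls numbered 4 with no filter and 6 with the replicate block. When 1 library was left out the rises ranged from 0 to 3 and the falls from 1 to 13. With the replicate block 11 of the 17 called list genes lost their call, and without any filter 13 did. Same-numbered libraries did not deviate together (correlations of deviations 0.09, −0.43 and −0.35). The numbers name no shared litter or day, so a call lost under the block was not read as a weaker effect. Without 1 control, Igha, Ighg1, Ighg3 and Jchain reached 1 FPKM in too few libraries to be tested. The tables hold no counts, so the values of Tnfrsf17 and of Jchain in Skiv2l-deleted libraries carry no counting interval.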
